A study of Mus musculus with 20 samples.

Results

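The genes of the heterogeneous nuclear ribonucleoproteins (hnRNPs) and of the serine/arginine-rich (SR) splicing factors were followed through an AGO2 immunoprecipitation and a transcriptome experiment in the mouse hippocampus. Members were all genes whose symbol begins with Hnrnp, or with Srsf and a digit, and these were 33 of the 25354 genes in the files, 21 Hnrnp and 12 Srsf genes. The rule used no measured value. In the RIP-seq, adult male C57BL/6 mice received hippocampal injections of AAV5 vectors that produced GFP-tagged AGO2 from a synapsin promoter, which is active in neurons, and RNA was precipitated through GFP. The AGO2 transcript also carried a sponge, a stretch of miRNA binding sites that occupies one miRNA: miR-292, a miRNA of embryonic stem cells (miR292sp, the control sponge), miR-124 (miR124sp) or miR-125 (miR125sp). Sham-injected mice, which carry no tagged AGO2, gave the background of the precipitation. Each of these 4 groups had 2 libraries, and each library pooled the lysate of 2 hippocampi. In the mRNA-seq, the same kind of AAV5 vector produced GFP alone, GFP.miR124sp or GFP.miR125sp, without AGO2, in C57BL/6 mice. There, 3 miR124sp mice were set against 3 GFP mice, and 3 miR125sp mice against 3 other GFP mice. The labels name hippocampal neurons as the cell type, but markers of astrocytes, oligodendrocytes and microglia were detected in every group of both assays, and the tissue was whole hippocampus.

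AGO2 is the protein that miRNAs guide to matching sites, mostly in 3′UTRs, so that transcripts that come down with AGO2 above background are candidates for miRNA control. hnRNPs and SR proteins bind nascent transcripts and decide with the spliceosome which exons are kept. SR proteins often favour the inclusion of an exon and hnRNPs its skipping. Many of their own genes also make transcripts with a so-called poison exon, which brings in an early stop, or with a spliced 3′UTR. Such transcripts are removed by nonsense-mediated decay (NMD). Through these the proteins limit their own levels.

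The miR-125 family was the only sponged family whose mature sequences were used here. Its members share their seed, bases 2 to 8, which stand in capitals below (RefSeq), and the complement of the seed, CTCAGGG, was searched for on the transcript strand of the longest annotated 3′UTR of each gene. The match was in 2 of 31 members with a 3′UTR (6.45%), Hnrnpab and Hnrnpul2. Among genes tested in the RIP-seq it was in 2 of 22 members (9.09%) and in 17.4% of 7636 genes. The longest 3′UTR had a median of 1488 bases in the members and 1543.5 bases in all those genes. The match of let-7, CTACCTC, searched in the same way, was in the longest 3′UTR of 0 of the 31 members and of 12.6% of the genes. A shorter 3′UTR of Srsf11 that was tested, with 825 of its 842 bases counted, held 1 let-7 match. The 3 miR-125 matches of the members are given with their surroundings because they are the candidate sites for the miR-125 sponge among these genes. They lie in 3′UTR exons on build NCBIM37 (mm9), with the match in capitals.
miR-125a-5p: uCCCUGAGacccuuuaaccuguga
miR-125b-5p: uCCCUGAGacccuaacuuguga
Hnrnpab, bases 803 to 809 of a 3′UTR of 1308 bases, chr11:51414092-51414119, minus strand: gggtgcttgatcCTCAGGGtttcacaac
Hnrnpul2, bases 915 to 921 of a 3′UTR of 2607 bases, chr19:8906928-8906955, plus strand: gaaggaatgattCTCAGGGtttcagctc
Hnrnpul2, bases 1606 to 1612 of the same 3′UTR, chr19:8907619-8907646, plus strand: caggcaaggcttCTCAGGGtgtgcagac

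Depth was 2417942 to 5072501 counts per library in the RIP-seq, and 6950522 to 27833176 per mouse in the mRNA-seq. In the RIP-seq, astrocyte markers summed to 59289 to 63478 CPM (counts relative to the TMM-scaled library total) in sham and to 15920 to 16342 in miR292sp. They summed to 43459 to 48206 with miR124sp and to 36239 to 38036 with miR125sp. Of the 12 astrocyte markers, 11 were above 0 in every group, and Fgfr3 was at 0. The reference genes that set the scale for enrichment over sham, those around Gapdh in the order of raw ratios, held 1.92% to 2.01% of the counts in sham. Their share was 0.697% to 0.745% in miR292sp, 1.43% to 1.45% with miR124sp and 1.21% to 1.29% with miR125sp.

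How many members could be measured depended on how their 3′UTRs overlap. The RIP-seq files hold counts per annotated 3′UTR, and 31 of the 33 members have 90 of them. Of 5423 3′UTRs that lie in several blocks, 99.594% were listed with the length of 1 block, that with the lowest genome coordinates. Only this block is taken as counted. Of these 3′UTRs 51 were listed at 0 in all 8 libraries, and 44 of the 51 shared every one of their counted bases with another annotated 3′UTR. Across the whole annotation, 99.991% of the 11143 3′UTRs without bases of their own were at 0, against 15.459% of the 18184 with at least 100 such bases. A member at 0 whose 3′UTRs share their bases is therefore not shown to be absent from the precipitate. Srsf2-001 was at 0 with 245 bases of its own, and the reason was not tested. Hnrnph1, Hnrnph2, Hnrnpm, Srsf2, Srsf4 and Srsf5 were at 0 throughout, Hnrnpk had 1 count, and Hnrnpa3 with 55 and Hnrnpl with 53 counts stayed under the filter. Hnrnpa1 and Hnrnpa1l2-ps2 had no 3′UTR in the RIP-seq files. The filter of at least 10 counts in every library left 28 3′UTRs of 22 members, among 8203 3′UTRs of 7638 genes. Of the 28, 22 belong to protein-coding and 6 to NMD transcripts. Among the 22 is the 3′UTR of Srsf3-ps, a pseudogene of Srsf3 whose transcript Gm12355-001 is annotated as protein-coding. The NMD 3′UTRs were Srsf3-002, Srsf11-006, Srsf11-008, Hnrnpu-005, Hnrnpd-004 and Hnrnph3-003, with 40 to 422 bases of their own. All 6 lie in several blocks, so that a part of each was counted, such as 49 of 505 bases for Srsf11-008. Own bases are those outside other 3′UTRs, and overlap with coding exons was not examined.

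The first comparison asked which members were bound by AGO2 under the control sponge. Of the 28 3′UTRs, 9 were higher in miR292sp than in sham (32.1%), where 59.4% of all 8203 3′UTRs were, and 0 were lower, where 0.585% of all were. These calls are from edgeR's quasi-likelihood test at an adjusted p below 0.05. Without adjustment, 10 were higher and 0 lower at p below 0.05, and DESeq2 called 10 higher and 0 lower. For counts at an unadjusted p, with DESeq2 or with samples left out, here and below, no share of all 3′UTRs or genes is given. Such counts cannot be read against a background. The median log2 fold change was 0.38 for the members and 1.26 for all 3′UTRs, and 21 of 28 lay below the median of all. The 9 higher members were Hnrnpf, Hnrnpul1, Hnrnpa0, Srsf12, Hnrnpul2, Hnrnpr, Srsf6, Hnrnpc and Hnrnpa2b1. With TMM scaling, which sets most 3′UTRs to no change, the median of all moved to −0.11 and that of the members to −0.98. Then 4 members were higher and 15 lower, where 21.6% of all 3′UTRs were higher and 19.1% lower. The distance between the medians was −0.87 before and −0.86 after. It could hardly change, since scaling moves all 3′UTRs by nearly the same amount.

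**Figure D1:**
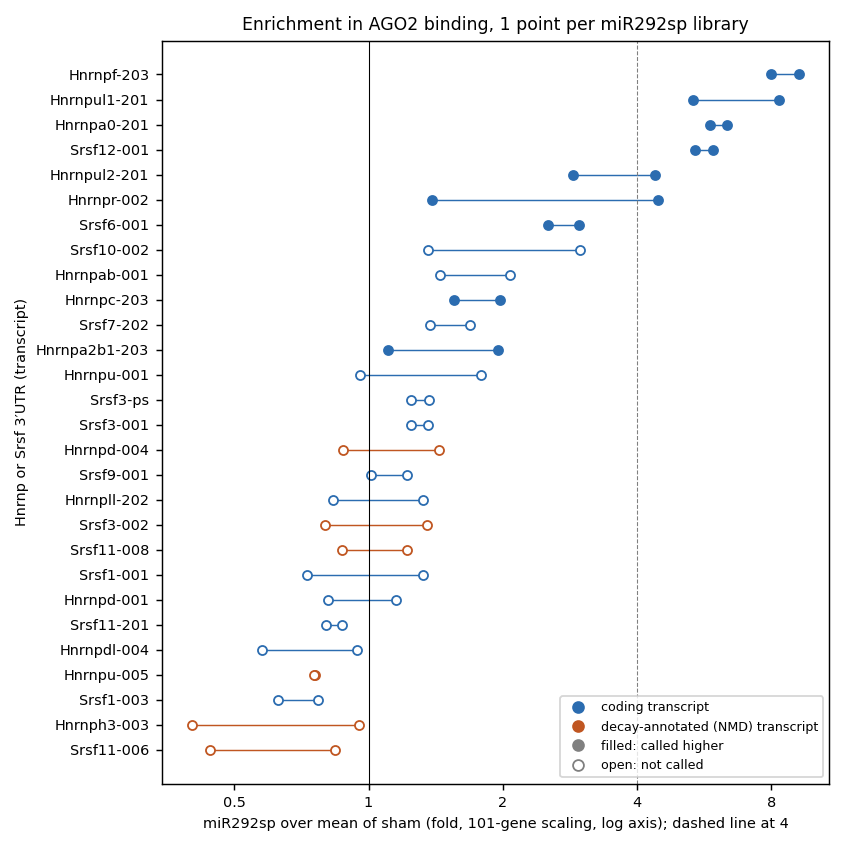
Relative enrichment in AGO2 binding (fold over the sham mean, log axis) of the 28 member 3′UTRs, with 1 point for each of the 2 miR292sp libraries, blue for coding and orange for NMD transcripts, filled where called higher. The solid line marks 1-fold and the dashed line 4-fold, and Hnrnpf, Hnrnpul1, Hnrnpa0 and Srsf12 lay above 4-fold in both libraries.

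Among the members above 4-fold, Hnrnpf stood highest. Its product binds runs of guanines in RNA. Its 3′UTR had 251 and 229 counts in miR292sp and 26 and 51 in sham, an enrichment of 9.24- and 8.01-fold. The groups did not overlap (8.70-fold in the fit, log2 interval of ± 2 SE from 2.20 to 4.04, n = 2 per group, edgeR adjusted p = 1.25e-05), and 93.1% of 3′UTRs had a lower value. Hnrnpul1, a relative of the nuclear scaffold protein hnRNP U, had 633 and 427 counts in miR292sp and 140 and 89 in sham. It was enriched 8.35- and 5.35-fold (log2 2.77, SE 0.35, adjusted p = 2.48e-06). Hnrnpa0, an hnRNP of the A/B family, had 1180 and 1136 counts against 214 and 319. Both of its miR292sp libraries were close together, at 6.37- and 5.82-fold (log2 2.61, SE 0.27, adjusted p = 2.20e-07). Srsf12, an SR protein known to act against splicing, was the highest of the Srsf genes. It had 1201 and 1154 counts against 245 and 341, or 5.92- and 5.40-fold (log2 2.50, SE 0.26, adjusted p = 1.93e-07). These 4 of 28 were above the study's 4-fold limit in both miR292sp libraries, as were 23.3% of all 3′UTRs. They were also the 4 members still higher with TMM scaling, at log2 fold changes of 1.15 (Srsf12) to 1.78 (Hnrnpf).

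A second set of members was called at a smaller enrichment. Hnrnpul2, the other relative of hnRNP U, was at 4.39- and 2.87-fold, from 571 and 393 counts in miR292sp and 204 and 181 in sham (log2 1.86, SE 0.31, adjusted p = 5.01e-05). Srsf6, an SR protein with roles in alternative splicing, had 1693 and 1514 counts against 848 and 832, which is 2.97- and 2.52-fold (log2 1.46, SE 0.20, adjusted p = 5.02e-06). With the scaling to the reference genes both stood apart from sham in every library. With TMM scaling neither was called, at 0.49 for Hnrnpul2 and 0.09 for Srsf6, and the libraries of Srsf6 overlapped with sham. Hnrnpc, which forms the core of hnRNP particles with its partners, was at 1.97- and 1.55-fold (log2 0.82, SE 0.26, adjusted p = 0.0105). Hnrnpr, a relative of Syncrip, was at 4.45- and 1.39-fold, so that its 2 libraries differed more than those of the others (log2 1.54, SE 0.59, adjusted p = 0.0317). Hnrnpa2b1, whose product also transports RNA into dendrites, was at 1.95- and 1.10-fold (log2 0.61, SE 0.24, adjusted p = 0.0355), and its groups overlapped. The calls of these 3 were lost when miR292sp replicate 5 or sham replicate 7 was left out, which left 1 library in that group. Hnrnpc, whose groups did not overlap, moved least of the 3 without miR292sp replicate 5. Without miR292sp replicate 5, Hnrnpr was at 0.48 (adjusted p = 0.606), Hnrnpa2b1 at 0.14 (adjusted p = 0.678) and Hnrnpc at 0.64 (adjusted p = 0.112) on the log2 scale. Without sham replicate 7, they were at 1.33 (adjusted p = 0.136), 0.41 (adjusted p = 0.230) and 0.61 (adjusted p = 0.0883). With TMM scaling Hnrnpc was at −0.54 and Hnrnpa2b1 at −0.75, so that their direction depended on the scaling.

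The other named members did not pass the test. Hnrnpu, the nuclear scaffold protein itself, had 611 and 344 counts in miR292sp and 681 and 361 in sham, and the enrichment of 1.79 and 0.96 overlapped with sham (log2 0.46, adjusted p = 0.234). Srsf3, which also regulates its own poison exon, had its coding 3′UTR at 1.24- and 1.36-fold (log2 0.38). Srsf7, its closest relative, was at 1.37- and 1.69-fold (log2 0.62). Srsf1, the founding SR protein, had 2 measured 3′UTRs with log2 fold changes of 0.04 (Srsf1-001) and −0.52 (Srsf1-003). Hnrnpd, the AU-rich element binding protein AUF1, was at −0.03 (Hnrnpd-001), but this 3′UTR is one of those that set the scale, so that its value lies near 0 by construction. Srsf11 was lowest among the members, at −0.63 for Srsf11-006, followed by Hnrnph3-003 with −0.56 and Srsf1-003. The value of Srsf11-006 rested on few counts, 13 and 26 in miR292sp and 36 and 49 in sham, in a block of 40 bases.

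The median of the NMD 3′UTRs, each counted in 1 of its several blocks, was below that of the coding ones. Their ranges overlapped. None of the 6 was called higher, and their median log2 fold change was −0.17. Of the 22 coding 3′UTRs 9 were called (40.9%), with a median of 0.62 and values down to −0.52 (Srsf1-003). The difference was not tested, and it went with the number of bases that a 3′UTR shares with no other: the 8 members with fewer than 500 such bases, which include the 6 NMD 3′UTRs and 2 coding ones, had a median of −0.17 and 0 calls, and the 20 with more had a median of 0.72 and 9 calls. The same order of medians held for the whole annotation, where 23.5% of 353 NMD 3′UTRs were higher with a median of 0.47 and 61.1% of 7797 coding ones with a median of 1.30. For Srsf3, only 1 block of the NMD 3′UTR Srsf3-002 was counted, 422 of 1428 bases (chr17:29176433-29176854). It had 156 and 97 counts in miR292sp and 189 and 155 in sham. Its enrichment was 1.35 and 0.80 (log2 0.10, SE 0.44, edgeR adjusted p = 0.858). The interval of ± 2 SE reached from −0.78 to 0.98 and overlapped with that of the coding 3′UTR, −0.24 to 1.00. For Srsf11 the largest 3′UTR by counts, Srsf11-008, was at 0.87- and 1.22-fold (log2 0.07).

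**Figure D2:**
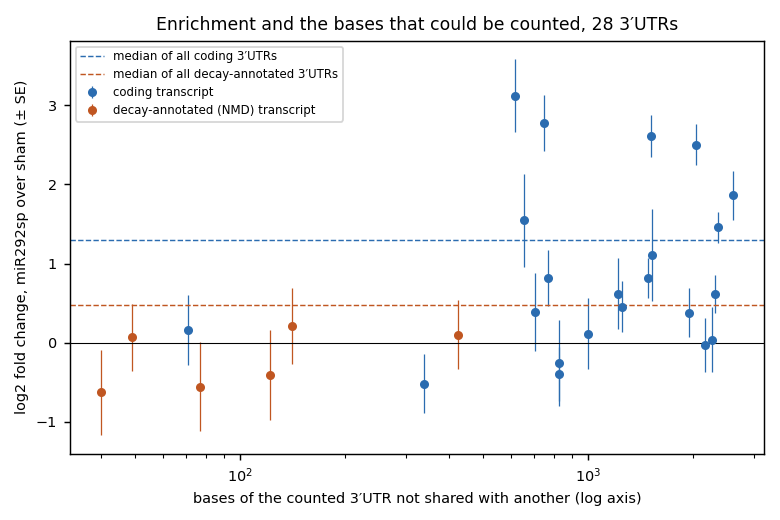
Log2 fold change of miR292sp over sham (y axis) against the number of bases a 3′UTR shares with no other annotated 3′UTR (x axis, log scale) for the 28 member 3′UTRs with ± SE, blue for coding and orange for NMD transcripts, with dashed lines at the medians of all coding (1.30) and all NMD (0.47) 3′UTRs. The 6 NMD 3′UTRs, each counted in 1 of its several blocks, lay at 0.21 or below. Hnrnpf and Hnrnpul1 lay highest with 617 and 749 own bases.

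Across the 28 3′UTRs the log2 fold change went with the log2 number of own bases at r = 0.45 (Pearson) and 0.45 (Spearman's rho). Across 8096 3′UTRs of all genes the values were 0.21 and 0.21. These are descriptions across 3′UTRs, which share libraries and in part genes. For the 8 members with both a tested 3′UTR and a single RefSeq transcript in the mRNA-seq, the enrichment and the mRNA level per kb of transcript went together at r = 0.17 and rho = 0.29, which is weak at this number of genes.

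**Figure D3:**
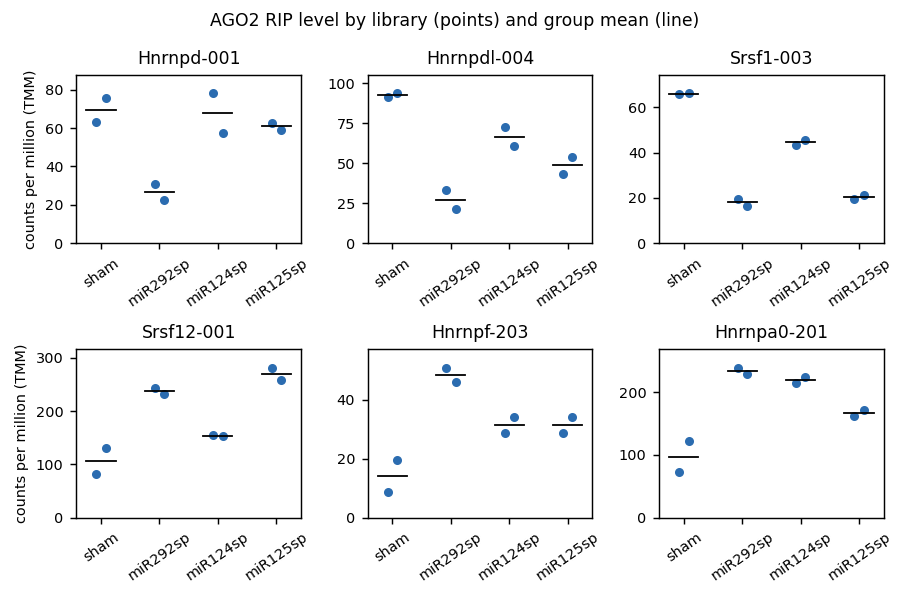
CPM of selected member 3′UTRs in each of the 8 RIP-seq libraries (points; TMM-scaled, y axes start at 0), by group, with the group mean as a line. Hnrnpd, Hnrnpdl and Srsf1-003 were higher with miR124sp than with miR292sp in both libraries, and Srsf12 was lower, from 244 and 233 to 156 and 153.

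The second comparison asked whether sponging miR-124 or miR-125 changed what AGO2 bound. Both sponges were set against the same miR292sp libraries, so that their differences are not independent, and each is given with its own values. With miR124sp, 3 of 28 member 3′UTRs were higher (10.7%), against 5.1% of all 3′UTRs, and 0 were lower, against 3.46%. Unadjusted p-values were below 0.05 for 7 higher members and 1 lower, and DESeq2 called 4 higher and 1 lower, both without a share of all 3′UTRs to set them against. The median log2 fold change was 0.55 for the members and 0.04 for all. With miR125sp, 0 of 28 were higher and 0 lower in edgeR, against 1.18% and 0.232% of all 3′UTRs. Unadjusted p-values were below 0.05 for 4 higher and 0 lower, and DESeq2 called 1, Hnrnpd-001, higher. The median was 0.21 for the members and 0.03 for all.

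The 3 members that rose with miR124sp had not been called above sham. On the TMM scale used here, all 3 were lower in miR292sp than in sham, by log2 fold changes of −1.39 (Hnrnpd-001), −1.77 (Hnrnpdl) and −1.88 (Srsf1-003). Hnrnpd-001 had 30.7 and 22.6 CPM in miR292sp, 78.1 and 57.4 with miR124sp and 63.3 and 75.5 in sham. The miR124sp libraries were above both miR292sp libraries and overlapped with sham (log2 fold change 1.35, SE 0.33, edgeR adjusted p = 0.0195). Hnrnpd-004, the NMD 3′UTR of the gene, did not pass (log2 0.16). Hnrnpdl, a close relative of Hnrnpd, had 33.3 and 21.4 CPM in miR292sp, 72.6 and 61.0 with miR124sp and 91.2 and 93.9 in sham (Hnrpdl-004 in the annotation, log2 1.29, SE 0.33, adjusted p = 0.0237). Srsf1-003 had 19.5 and 16.5 CPM in miR292sp, 43.4 and 45.8 with miR124sp and 66.0 and 66.3 in sham (log2 1.31, SE 0.36, adjusted p = 0.0325). For both, miR124sp lay between miR292sp and sham without overlap. The larger 3′UTR of Srsf1, Srsf1-001, was at 0.73 (adjusted p = 0.249). The number of members that rose was 0 without miR124sp replicate 3, 1 without replicate 4, and 0 without either miR292sp library.

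Markers of another cell type differed between the same groups. Of the 10 astrocyte markers tested in the RIP-seq, 5 were higher with miR124sp than with miR292sp and 0 lower, and 4 were higher with miR125sp and 0 lower. Of 13 oligodendrocyte markers 4 were higher and 1 lower with miR124sp (median 0.87), and 1 was higher with miR125sp. Their sums were 1072 to 1076 CPM in miR292sp, 1102 to 1384 with miR124sp and 1290 to 1311 with miR125sp. Of 12 neuron markers 2 were higher with miR124sp and 1 with miR125sp, and 0 were lower. The sums of the astrocyte markers and the share of the reference genes, given above, were likewise higher with both sponges. The reference genes were picked by their raw ratio of miR292sp to sham. Their lower share in miR292sp is therefore in part set by that choice. The part of the markers and of this share in the result was not tested. Scaled to the reference genes instead, the median of all 3′UTRs moved to −0.97 with miR124sp and that of the members to −0.46. Of all 3′UTRs 50% were then lower and 0.207% higher. Among the members 0 were higher and 9 lower (32.1%): Hnrnpa0, Hnrnpu, Hnrnpul1, Srsf12, Hnrnpul2, Hnrnpa2b1, Srsf3, Srsf6 and Hnrnpf.

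Among the members enriched in AGO2, Srsf12 had the lowest value with miR124sp. It had 244 and 233 CPM in miR292sp, 156 and 153 with miR124sp and 282 and 259 with miR125sp. The miR124sp libraries lay below the 4 others and above the sham libraries, which had 82.5 and 131 CPM. The difference from miR292sp (log2 −0.62, SE 0.23, adjusted p = 0.0987) missed the threshold in edgeR and passed it in DESeq2 (−0.68, adjusted p = 0.0402). Hnrnpf was at −0.62 (adjusted p = 0.351) and Hnrnpul1 at −0.39 (adjusted p = 0.494). The highest values that did not pass were Srsf11-006 with 1.73 (adjusted p = 0.0515) and Hnrnpu-005 with 1.33. That of Srsf11-006 rested on only 13 and 26 counts in miR292sp. Hnrnpc was at 0.41, Hnrnpa2b1 at 0.31, Hnrnpu at 0.07, Srsf3 at 0.06, Srsf7 at 0.79 and Srsf11-008 at 0.69.

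With miR125sp, the genes with a miR-125 match showed no difference that passed the test. Hnrnpab, which binds RNA and single-stranded DNA, had 49.4 and 36.1 CPM in miR292sp and 42.4 and 51.4 with miR125sp, which overlap (log2 0.14). Hnrnpul2, with both of its matches, had 116 and 79.3 CPM against 96.7 and 75.2, which also overlap (log2 −0.18). Scaled to the reference genes, Hnrnpul2 was at −0.96 (adjusted p = 0.0190), where the median of all 3′UTRs was −0.75. On that scale 5 of 28 members were lower and 0 higher, against 38.2% and 0.219% of all 3′UTRs. The highest members were Srsf11-006 with 1.54 (adjusted p = 0.154), Hnrnpll, a splicing regulator of lymphocytes, with 1.41 (adjusted p = 0.107) and Hnrnpd-001 with 1.20 (adjusted p = 0.0797). For Srsf11-006 the same 13 and 26 counts in miR292sp entered. The lowest were Hnrnpf with −0.62, Hnrnpa0 with −0.48 and Srsf3 with −0.27. Between these were Srsf1-001 (0.66), Srsf11-008 (0.53), Srsf7 (0.41), Hnrnpu (0.28), Hnrnpc (0.22) and Hnrnpa2b1 (0.21).

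The sponges were also compared with each other. Between miR124sp and miR125sp 0 of 28 members were higher and 0 lower, with a background of 0.0% and 0.0122%. At an unadjusted p below 0.05, 1 was higher, Srsf1-003 (2.17-fold), and 1 lower, Srsf12 (log2 −0.81), each at an adjusted p of 0.862 in edgeR, and DESeq2 called 0. The next highest were Hnrnpr (0.78) and Hnrnpab (0.61), and the next lowest Srsf3-002 (−0.54) and Hnrnpul1 (−0.35). Hnrnpd, Hnrnpc, Hnrnpa2b1, Hnrnpu, Srsf7, Srsf3, Srsf11 and Srsf1-001 lay between −0.21 (Hnrnpu) and 0.37 (Srsf7).

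The mRNA-seq measured the transcripts themselves. The files list 32 members in 70 RefSeq transcripts, 36 of which were at 0 in all mice. The 15 members with a single transcript had a median of 44345 counts over the 12 mice and the 17 with several had 446, and for all genes the medians were 500.5 and 32. No source used here says what was done with reads that fit more than 1 transcript, and the levels of the 17 members are therefore uncertain. Hnrnpa3, Hnrnpd, Hnrnpr and Srsf10 were listed at 0, and Hnrnpc (22 counts), Srsf11 (45) and Hnrnpf (68) were too low to test. The Srsf3 pseudogene had no transcript in these files, and 25 members were tested.

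Members with 1 RefSeq transcript can be ordered by level per length. In the 6 GFP mice, Hnrnpk, a protein binding cytosine-rich RNA, led with 188 ± 14.2 CPM per kb (SD, n = 6). Hnrnpu had 155 ± 20.5, Hnrnpl, a regulator of exon skipping, 132 ± 8.92, and Hnrnph1, which binds runs of guanines, 117 ± 7.86. Each of these overlapped with its neighbour. Hnrnph2, Srsf2, Hnrnpa1l2-ps2, Hnrnpa0, Hnrnpdl and Hnrnpul2 followed with means of 71.7 to 89.8, each overlapping with the next in this order, while Hnrnpul2 and Hnrnpa1l2-ps2 did not overlap. Below them, Srsf6 (40.7), Hnrnpll (29.9), Srsf12 (13.0), Srsf4 (8.35) and Hnrnph3 (5.33) were each apart from their neighbours in all 6 mice. Hnrnpa1l2-ps2 is annotated as a copy of Hnrnpa1, and reads that fit both may have been split, so that its level is uncertain. Among these 15, the SR protein genes lay lower than the most abundant Hnrnp genes, with Srsf2, which binds exonic enhancers, the highest of them at 89.4.

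For some members the counts fell on transcripts that RefSeq lists as noncoding. All counts of Srsf3 and Srsf9 and 97.8% to 100% of those of Srsf7 were in noncoding transcripts, and the coding transcripts of Srsf3 and Srsf9 were listed at 0. For Hnrnpa1 the share was 31.9% to 55.4% and for Hnrnpa2b1 14.9% to 35.6% among the 12 mice. The mean share of Hnrnpa1 was 51.4% in the GFP and 43.1% in the miR124sp mice, and 39.2% in the GFP and 34.2% in the miR125sp mice. For Hnrnpa2b1 the means were 27.9% and 26.0%, and 19.4% and 17.4%. No single transcript of a member with a noncoding form passed the test.

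The third comparison asked whether the sponges changed the mRNA level. With miR124sp, 3 of 25 members were higher than in GFP mice (12%), where 12.5% of the 13111 genes tested were, and 0 were lower, where 10.7% were. The share of higher members was thus near that of all genes. Before adjustment, 4 were higher and 2 lower at p below 0.05, and DESeq2 called 4 higher, with Hnrnph2 added, and 0 lower. In hippocampal tissue, fewer cells of a type and less RNA per cell cannot be told apart. All p-values measure the spread between these samples.

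**Figure D4:**
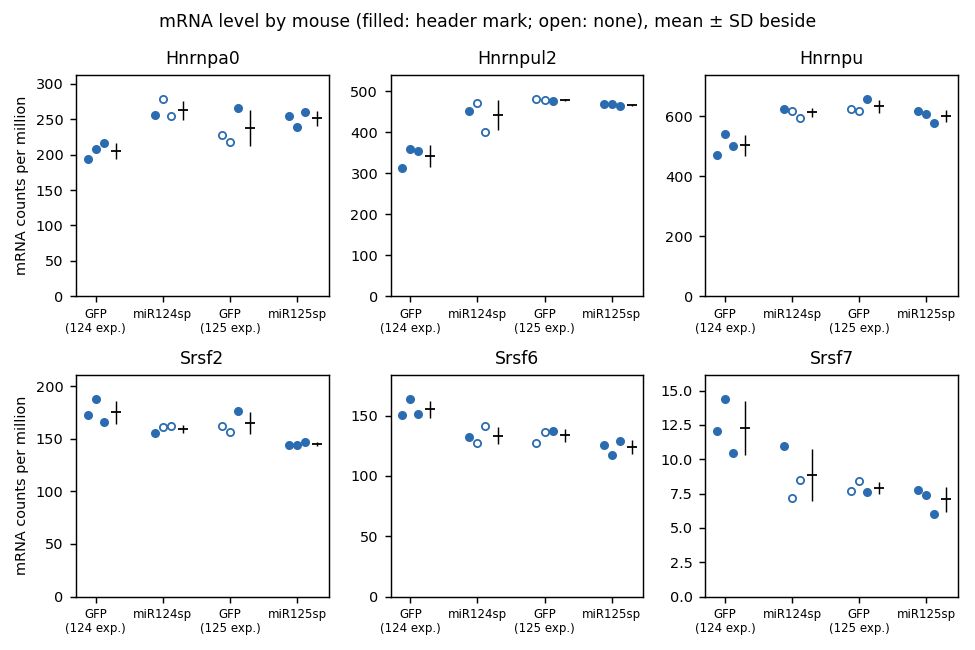
mRNA level (CPM, y axes start at 0) of 6 members in each of the 12 mice, filled where the file header carries a mark and open where not, with mean ± SD (n = 3) beside each group. Hnrnpa0, Hnrnpul2 and Hnrnpu of the miR124sp mice lay above their own GFP mice, and for Hnrnpul2 and Hnrnpu near the GFP mice of the miR-125 experiment. Nearly all counts of Srsf7 were in a noncoding transcript.

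Hnrnpa0 had 194, 207 and 216 CPM in the GFP mice and 256, 278 and 255 with miR124sp. All 3 sponge mice were above all GFP mice, and Hnrnpa0 rose (log2 0.37, SE 0.07, edgeR adjusted p = 0.00896). Hnrnpul2 rose from 312, 359 and 354 CPM to 453, 471 and 401 (log2 0.38, SE 0.09, adjusted p = 0.0158). Hnrnpu rose from 469, 540 and 501 CPM to 624, 619 and 594 (log2 0.30, SE 0.08, adjusted p = 0.0296). Neither of the latter overlapped between groups. The GFP mice of the miR-125 experiment stood at 481, 480 and 476 CPM for Hnrnpul2 and at 624, 617 and 657 for Hnrnpu. For Hnrnpul2 these were above all miR124sp mice, and for Hnrnpu they overlapped with them. For Hnrnpa0 the GFP mice of the miR-125 experiment stood at 228, 218 and 266 CPM, between both groups of the miR-124 experiment on average.

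A mark in the file headers, whose meaning no source used here gives, divided the mice. It was on all 3 GFP mice of the miR-124 experiment but on only 1 of 3 miR124sp mice, replicate 14. With the mark as a covariate, chosen after seeing the data, Hnrnpa0 was at 0.33 (adjusted p = 0.0894), Hnrnpul2 at 0.42 (adjusted p = 0.0734) and Hnrnpu at 0.32 (adjusted p = 0.128), and 0 members passed. The marked miR124sp mouse was the highest of its group for Hnrnpu, and for Hnrnpul2 it was between the others. The number of members that rose was 0 without GFP replicate 15, 0 without miR124sp replicate 2 and 1 without replicate 14. With miR124sp replicate 14 left out 1 member was lower, and with replicate 9 left out 2.

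Cell type markers moved with the miR124sp group too. Of 13 oligodendrocyte markers tested 10 were higher, and the list summed to 1366 to 1749 CPM with miR124sp and 1007 to 1092 with GFP. Of 15 neuron markers 6 were higher and 1 lower, and the 16 of that list summed to 6644 to 7035 against 5892 to 6575 CPM. Of 10 astrocyte markers 5 were lower, and their sums were 3466 to 3755 against 4175 to 4783 CPM, with Slc4a4 at 0. Of 9 microglia markers 6 were lower, at 704 to 732 against 800 to 893 CPM, with Ctss and Itgam at 0. Of 6 endothelial markers 0 passed in edgeR, 2 were higher at an unadjusted p below 0.05 and DESeq2 called 1, and their sums were 301 to 332 against 271 to 302 CPM, with Tek at 0. Their part in the change of the 3 members was not tested.

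The other members did not pass in miR124sp mice. Hnrnph2 was at 0.25 (adjusted p = 0.0535). On the lower side were Srsf1 with −0.46 (adjusted p = 0.232), Srsf7 with −0.45 (adjusted p = 0.0872) and Srsf9, an SR protein close to Srsf1, with −0.32. Srsf6 had 151, 163 and 151 CPM in GFP mice and 132, 127 and 141 with miR124sp (log2 −0.20, adjusted p = 0.0642), without overlap of the groups. Srsf2 was at −0.12, Srsf3 at −0.06, Hnrnpa1 at −0.02, Hnrnpa2b1 at −0.02 and Hnrnpk at 0.00. In 1 fit over all 12 mice, Srsf6 (−0.22) and Srsf7 (−0.47) passed as lower and 4 members as higher. In all mRNA comparisons the values of Srsf3, Srsf7 and Srsf9 rest on noncoding transcripts, which held 97.8% to 100% of their counts.

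**Figure D5:**
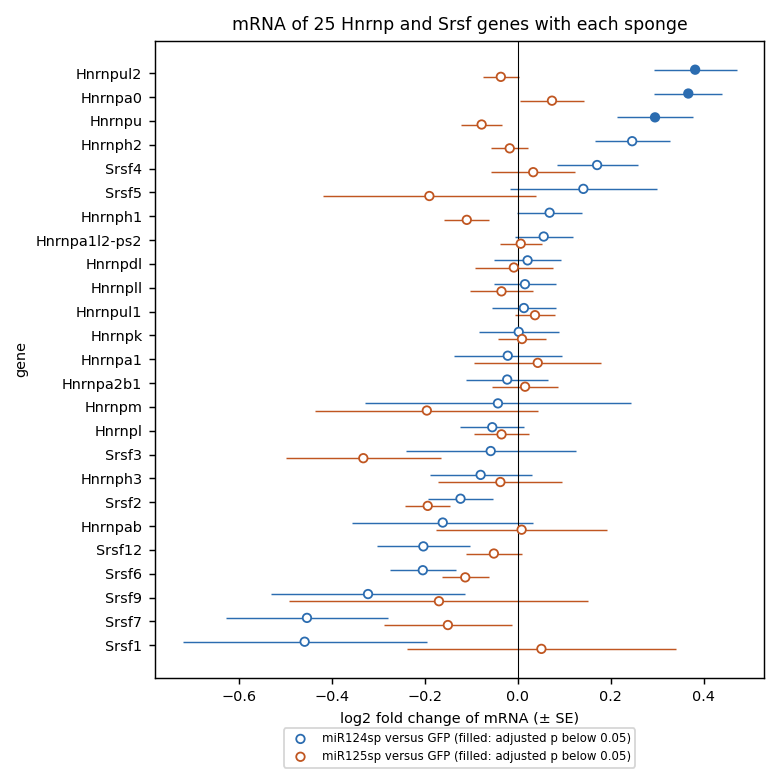
Log2 fold change of mRNA (x axis, with bars for ± SE) of the 25 tested members with miR124sp and with miR125sp, each against its own GFP mice, filled where the adjusted p was below 0.05. Hnrnpul2, Hnrnpa0 and Hnrnpu rose with miR124sp at 0.30 to 0.38, and no member passed with miR125sp. The values of Srsf3, Srsf7 and Srsf9 rest on noncoding transcripts.

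With miR125sp, 0 of 25 members were higher and 0 lower in edgeR, against 0.0548% and 0.172% of 12771 genes. At an unadjusted p below 0.05, 3 were lower, Srsf2, Hnrnph1 and Srsf6, and 0 higher, and DESeq2 called 0. Srsf2 had 162, 157 and 176 CPM in GFP mice and 144, 144 and 147 with miR125sp. The groups did not overlap (log2 −0.19, SE 0.05, adjusted p = 0.141), and with the header mark as a covariate Srsf2 passed as lower (−0.28, adjusted p = 0.0419). Hnrnph1 and Srsf6 were both at −0.11. The lowest was Srsf3 with −0.33, Hnrnpm, which binds guanine- and uracil-rich RNA, was at −0.20 and Srsf5, an SR protein, at −0.19. The highest were Hnrnpa0 with 0.07, Srsf1 with 0.05 and Hnrnpa1 with 0.04. Hnrnpa2b1 was at 0.02, Hnrnpk at 0.01, Hnrnpu at −0.08 and Srsf7 at −0.15. The genes with a miR-125 match, Hnrnpab and Hnrnpul2, were at 0.01 and −0.04.

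The difference between the effects of the 2 sponges was tested over the 12 mice. It was higher for miR124sp in 2 of 25 members (8%) and lower in 0, against 7.38% and 7.06% of 13413 genes. Hnrnpul2 differed by 0.40 (SE 0.10, edgeR adjusted p = 0.0145) and Hnrnpu by 0.36 (SE 0.09, adjusted p = 0.0164). Hnrnpa0 with 0.28 (adjusted p = 0.0940) and Hnrnph2 with 0.25 (adjusted p = 0.0773) did not pass. At an unadjusted p below 0.05, 4 members were higher and 0 lower, and DESeq2 called 4 higher. Srsf5 was at 0.32 and Srsf3 at 0.26. The lowest were Srsf1 (−0.51), Srsf7 (−0.32) and Hnrnpab (−0.18), and Srsf2 (0.05), Hnrnpk (−0.02), Hnrnpa2b1 (−0.05) and Hnrnpa1 (−0.08) lay near 0. With the header mark as a covariate 0 members passed, while the differences were as large, at 0.43 (SE 0.14, adjusted p = 0.0884) for Hnrnpul2 and 0.44 (SE 0.13, adjusted p = 0.0608) for Hnrnpu. The mark was on all 3 miR125sp mice but on only 1 of their GFP mice, replicate 4. Without miR125sp replicate 9, 1 member passed. Cell type markers differed in the same test: 8 of 13 oligodendrocyte markers were higher for miR124sp and 0 lower (median 0.66), 4 of 15 neuron markers were higher and 1 lower, and 2 of 10 astrocyte and 1 of 9 microglia markers were lower and 0 higher. Their part in the difference of the members was not tested.

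Other splicing genes give the setting. Over sham, 59.4% of all 3′UTRs were higher and 0.585% lower, and the counts below are to be read beside these shares. In the RIP-seq over sham, 5 of 12 tested genes of other hnRNP proteins were higher, among them Ptbp2, the neuronal polypyrimidine tract binding protein (3.07), and Pcbp4 (2.34). Of 17 tissue-restricted regulators 12 were higher, such as Celf4 (2.21) and Elavl3 (2.07), of 27 core spliceosome genes 10, such as Sf3a1 (3.81) and Snrnp40 (2.00). Of 19 SR-related genes 9 were higher, such as Luc7l (1.83) and Srpk1 (1.59), and Srrm2 was lower (−0.55). Against miR292sp, 5.1% of all 3′UTRs were higher and 3.46% lower with miR124sp, and 1.18% and 0.232% with miR125sp. In the 4 lists, 0 of 12, 2 of 17, 2 of 27 and 2 of 19 were higher with miR124sp, and with miR125sp 0, 1, 1 and 1. Those with miR125sp were Srrm2, Qk and Sf3b1. Those with miR124sp were Srrm2, Qk, Sf3b1, Pnn (1.25), Tia1 (1.33) and Dhx38 (1.91), and Prpf38a was lower (−1.69). In the mRNA of miR124sp mice, 12.5% of all genes were higher and 10.7% lower. There, 8 core spliceosome genes of 37 were higher, among them Snrnp200 (0.44) and Prpf8 (0.43), and 10 lower, such as Sf3b6 (−0.61) and Snrpg (−0.75). Of 19 tissue-restricted regulators 3 were higher, including Nova1 (0.85) and Elavl1 (0.27). Of 22 SR-related genes 2 were higher, Srrm4 (0.41) and Scaf8 (0.22), and Tra2b was lower (−0.21). Of 15 other hnRNP genes 0 passed in edgeR with miR124sp. Of these, 2 were higher at an unadjusted p below 0.05 and 1 lower, and DESeq2 called 0. With miR125sp 0 genes of these 4 lists passed in edgeR, where 0.0548% of all genes were higher and 0.172% lower. At an unadjusted p below 0.05, 1 other hnRNP gene was higher and 1 lower, and 5 SR-related, 3 tissue-restricted and 2 core genes were lower. DESeq2 called 2 SR-related genes and 1 tissue-restricted regulator lower.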

How the data were processed

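The authors deposited raw read counts, as whole numbers, for both assays: per annotated 3′UTR for the RIP-seq and per RefSeq transcript for the mRNA-seq. The methods name mm9 for mapping, the labels' processing notes name STAR, edgeR and mm10, and the counting program is not named in the sources used here. Names, lengths and coordinates of 3′UTRs were taken from GENCODE M1 on NCBIM37 (mm9). The mRNA-seq counts were summed per symbol.

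Differences were tested with the quasi-likelihood test of edgeR 4.0.16 in R 4.3.3 over all 3′UTRs or genes, with Benjamini-Hochberg adjustment and a threshold of 0.05. The 8 RIP libraries shared 1 fit, with at least 10 counts required in every library. Enrichment over sham was scaled to the reference genes around Gapdh, after the study's methods, and differences between sponges with TMM. For the mRNA-seq, filterByExpr and a fit over the 6 mice of an experiment were used, and the difference between the sponge effects as an interaction over all 12. Errors are standard errors of these fits. DESeq2 1.42.0, other scalings and filters and leaving out each library were alternatives. The steps were tested on simulated data. Python 3.11.15, numpy 2.4.6, pandas 2.3.3 and matplotlib 3.10.9 were also used.

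The members and the lists of other splicing genes and of cell type markers were chosen with earlier results of these data known. Members named with values were those called, the 3 highest and the 3 lowest of a comparison and 11 fixed genes: Hnrnpa1, Hnrnpa2b1, Hnrnpc, Hnrnpk, Hnrnpu, Hnrnpd, Srsf1, Srsf2, Srsf3, Srsf7 and Srsf11. From each splicing list those with the lowest p among the called were named. Others were named after their values were seen. The miR-124 and miR-292 sequences were not used here. Counts carry no molecular identifiers, so that depth, 2417942 to 5072501 counts per RIP library, bounds counting error only.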

Additional observations from a re-analysis of the deposited data

Results flagged for a closer look

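The effects of the 2 sponges on the mRNA of Hnrnpul2 and Hnrnpu differed, by the interaction test over the 12 mice. These were 2 of 25 members (8%), near the 7.38% of all 13413 genes that were higher in this test. The log2 fold change with miR124sp exceeded that with miR125sp by 0.40 for Hnrnpul2 and by 0.36 for Hnrnpu. Both genes rose in the 3 miR124sp mice against their own GFP mice and did not pass with miR125sp. The 2 sets of GFP mice stood at different levels for both genes, and the header mark was unevenly spread over the groups. With the mark as a covariate the differences were 0.43 (adjusted p = 0.0884) for Hnrnpul2 and 0.44 (adjusted p = 0.0608) for Hnrnpu in edgeR, as large as without it, with a larger SE. Without miR125sp replicate 9, Hnrnpu was at 0.33 and did not pass (edgeR adjusted p = 0.0567). Oligodendrocyte markers also differed in the interaction test, 8 of 13 being higher for miR124sp. The part of the GFP mice's levels and of the markers was not tested.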

How the results depend on the processing

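In the enrichment over sham, a change of scaling moves all 3′UTRs by nearly the same amount. It therefore cannot test the members' position below the median of all 3′UTRs. The split of calls did change. With TMM or DESeq2 size factors in place of the scaling to the reference genes, 4 members were higher and 15 lower than sham, where the main counts were 9 and 0. With both, 14 of 28 members turned from positive to negative. Among them were Hnrnpa2b1 (−0.75 and −0.73), Hnrnpc (−0.54 and −0.52), Hnrnpu-001 (−0.94 and −0.91), Srsf1-001 (−1.34 and −1.31), Srsf11-008 (−1.28 and −1.25), Srsf3-001 (−0.98 and −0.96) and Srsf3-002 (−1.27 and −1.25). The shift of the median of all 3′UTRs, from 1.26 to −0.11 and −0.09, shows that the scaling itself set this. With 1 library left out, 6 to 11 members were higher and 0 lower. For counts with 1 library or mouse left out, here and below, the share of all 3′UTRs or genes is not given.

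For miR124sp against miR292sp, the scaling to the reference genes gave 0 members higher and 9 lower, and 16 of 28 turned from positive to negative, among them Hnrnpa2b1 (−0.71), Hnrnpul2 (−0.90), Hnrnpu-001 (−0.96) and Srsf3-001 (−0.93), which were called lower. The DESeq2 test, the fit of the 2 groups alone and the fit without a filter each gave 1 lower. Leaving out 1 library gave 0 to 1 members higher. For miR125sp against miR292sp, 1 member was higher with the DESeq2 test and 2 in the fit of the 2 groups alone, and 5 were lower with the scaling to the reference genes, where 16 of 28 turned negative.

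In the mRNA of miR124sp mice, leaving out 1 mouse gave 0 to 4 members higher and 0 to 2 lower, the fit of all 12 mice gave 2 lower, and the header mark as a covariate gave 0 higher. With this covariate 1 member was lower in miR125sp mice. For the difference of the sponge effects, 4 members were higher with the DESeq2 test, 0 with the header mark as a covariate, and 1 to 3 with 1 mouse left out. The header mark was tried after the data were seen. The causes of these changes were not tested. The analysis was not paired, since the groups compared were different mice and no source used here pairs them.

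Of the 28 3′UTRs 19 had no call over sham, and the part of depth in this was not tested. Hnrnph3-003 rested on 20 to 80 counts a library and Srsf11-006 on 13 to 50. Little can be said of the 51 of 90 3′UTRs at 0, of which 44 shared all their counted bases with another. The same holds for the levels of the 17 members with several RefSeq transcripts in the mRNA-seq. Each RIP group had 2 libraries.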
